A study of Mus musculus with 6 samples.

Results

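The cytochrome P450 genes of families 1 to 4 were followed in ischemia-reperfusion livers of mice given ginsenoside Rk2 or vehicle. Members were taken by name, as every row of the count table called Cyp, a family number from 1 to 4, a subfamily letter and a gene number. The name rule gave 63 of the 15454 genes counted, in 19 subfamilies, and 57 of them carried enough reads to be tested. The rule left out 3 rows of the same subfamilies whose names carry a suffix, Cyp4a12a, Cyp4a12b and the pseudogene Cyp2d37-ps. A further 12 genes whose names fit the rule were listed only in the FPKM table, whose values are read levels scaled by transcript length and library size, where all 12 were at 0 in every liver, among them Cyp2b13, Cyp2w1 and Cyp4x1.

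All 6 mice were wild-type males of the C57BL/6 strain, 8 to 10 weeks old, in which 75% of the liver was made ischemic at body temperature and then reperfused. The I/R group (n = 3) received vehicle solution. The I/R+Rk2 group (n = 3) received Rk2, a saponin of ginseng, 2 days before surgery and once more when perfusion was restored. The comparison asks how P450 transcripts of the injured liver differed after Rk2. Sham-operated livers were not analysed here, and no value here shows what ischemia and reperfusion alone did to these genes. The labels number 3 liver samples per group and say nothing of separate litters or surgery days, so p-values measure the spread between these samples. Total counts ran from 16809613 to 35618074 per liver.

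P450 enzymes are heme proteins that insert oxygen into drugs, foreign chemicals, steroids and fatty acids, using electrons that cytochrome P450 reductase passes on from NADPH. In the liver, members of these families are made mainly by hepatocytes, many of them most strongly around the central vein, and nuclear receptors such as CAR, PXR and PPAR-alpha and the aryl hydrocarbon receptor (AhR) switch their genes on. Inflammation is known to lower many of them. In the mouse the genes stand in tandem clusters of close copies, so that a short read may match more than one member.

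Near-identical copies bear on every count reported for single members, and stretches of the coding sequences show how far they can be told apart. For each set below, the 90 bases with the most differences are printed 5′ to 3′ on the coding strand, from the GENCODE M21 transcripts of GRCm38 (mm10), with capitals at the positions where the set differs. The first pair is Cyp2a4 and Cyp2a5, coding bases 580 to 669, spanning exons 4 and 5 (chr7:26309014-26310720 and chr7:26837177-26838882, both plus strand, exon and intron bases counted). They differed at 5 of the 90 bases shown and at 23 of all 1482 coding bases, with an identical run of 216 bases.
Cyp2a4: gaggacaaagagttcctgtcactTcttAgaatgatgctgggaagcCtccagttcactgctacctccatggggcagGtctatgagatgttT
Cyp2a5: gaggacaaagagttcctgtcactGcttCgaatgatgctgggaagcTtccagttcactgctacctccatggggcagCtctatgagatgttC

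The second pair is Cyp2a12 and Cyp2a22, coding bases 1294 to 1383 in exons 8 and 9 (chr7:27035449-27036550, plus strand, and chr7:26932447-26933482, minus strand). They differed at 8 of these 90 bases and at 45 of 1476 in all, with an identical run of 206 bases.
Cyp2a12: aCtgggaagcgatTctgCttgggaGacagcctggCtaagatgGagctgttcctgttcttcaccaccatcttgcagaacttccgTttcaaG
Cyp2a22: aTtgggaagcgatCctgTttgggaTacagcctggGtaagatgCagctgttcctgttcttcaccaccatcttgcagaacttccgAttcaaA

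The third set holds Cyp3a11, Cyp3a44 and Cyp3a16, coding bases 757 to 846 in exons 8 and 9 (chr5:145864947-145865925, chr5:145790672-145791656 and chr5:145451820-145452797, all minus strand). In this window 17 bases differed among the 3 genes, and 149 of 1512 did so in all, with identical runs of at most 59 bases.
Cyp3a11: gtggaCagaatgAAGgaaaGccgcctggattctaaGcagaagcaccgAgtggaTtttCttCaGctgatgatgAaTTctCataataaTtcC
Cyp3a44: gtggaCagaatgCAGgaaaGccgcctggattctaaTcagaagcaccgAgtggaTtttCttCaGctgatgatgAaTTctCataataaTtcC
Cyp3a16: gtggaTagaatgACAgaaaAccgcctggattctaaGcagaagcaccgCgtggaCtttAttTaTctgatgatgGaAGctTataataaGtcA

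The last set holds Cyp3a25, Cyp3a59 and Cyp3a57, coding bases 1093 to 1182 in exon 11 (chr5:145984941-145985030, minus strand, chr5:146104740-146104829 and chr5:145381303-145381392, plus strand). Of these 90 bases 14 differed, and 108 of 1509 did so over the coding sequence, with identical runs of at most 81 bases.
Cyp3a25: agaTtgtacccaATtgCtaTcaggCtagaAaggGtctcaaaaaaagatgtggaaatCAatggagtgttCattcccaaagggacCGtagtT
Cyp3a59: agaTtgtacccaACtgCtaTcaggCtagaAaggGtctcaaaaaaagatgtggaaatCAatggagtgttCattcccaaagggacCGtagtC
Cyp3a57: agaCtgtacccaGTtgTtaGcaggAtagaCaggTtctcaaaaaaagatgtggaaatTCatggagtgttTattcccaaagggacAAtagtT

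Of the 57 members tested, 26 passed an adjusted p below 0.05 in edgeR, which is 45.6% beside 43.9% of the 12411 genes tested. Higher levels in I/R+Rk2 were called for 19 members, 33.3% beside 20.3% of all genes, and lower levels for 7, 12.3% beside 23.7%. In this fit the share of members called was thus close to that of all genes, while the calls lay more often on the higher side than those of all genes. The median log2 fold change of the members, I/R+Rk2 over I/R, was 0.35, and that of all tested genes was -0.01. The groups did not overlap in 31 members, 54.4% beside 57.4% of all genes. A fold change above 2 together with the adjusted p was reached by 7 members, 12.3% beside 14.6% of all genes. Of these, Cyp2u1 and Cyp4a14 were higher, and Cyp2b10, Cyp2a5, Cyp4f18, Cyp2b23 and Cyp3a57 were lower. In bulk tissue, fewer cells of a type and less RNA per cell cannot be told apart.

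The split between higher and lower calls, and the share of members called, depended on how the libraries were scaled. With library size alone in place of TMM scaling, 15 members passed, 7 higher and 8 lower, so that 46.7% of the calls were higher beside 73.1% with TMM. The members called were then 26.3%, beside 38.7% of all genes. The members' median log2 fold change was then 0.19 and that of all genes -0.17. The 7 rises that passed both ways were those of Cyp1a2, Cyp2c44, Cyp2d22, Cyp2d40, Cyp2u1, Cyp4a14 and Cyp4f14, and the 7 falls passed both ways. Leaving out 1 liver also mattered, since 13 of the 26 calls passed in all 6 such fits and 13 did not. Omitting I/R replicate 1 left 17 calls, and omitting I/R replicate 3 or I/R+Rk2 replicate 2 left 15 each, in fits with fewer samples. Without I/R replicate 1 that was 29.3% of members beside 31.9% of all genes. It was 26.3% beside 31.4% without I/R replicate 3, and 26.3% beside 31.1% without I/R+Rk2 replicate 2.

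Of 18 hepatocyte markers such as Alb and Ttr, 14 were called higher and 1 lower in I/R+Rk2, with a median log2 fold change of 0.45. That is 77.8% and 5.56%, beside 20.3% and 23.7% of all genes. Their summed level was 92468 to 104499 CPM (counts divided by the TMM-scaled library size in megareads) in I/R. It was 136474 to 162808 CPM in I/R+Rk2. Neutrophil markers went the other way, with 12 of 13 called lower (92.3%, beside 23.7% of all genes). Their summed level was 1219 to 1526 CPM in I/R against 158 to 320 CPM after Rk2. All 10 monocyte markers were called lower. Other lists were less uniform, with 2 of 10 Kupffer, 2 of 7 stellate and 3 of 6 cholangiocyte markers called, all lower. Of 7 endothelial markers, 3 were called higher and 3 lower. The part of these cell types in the P450 results was not tested.

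**Figure D1:**
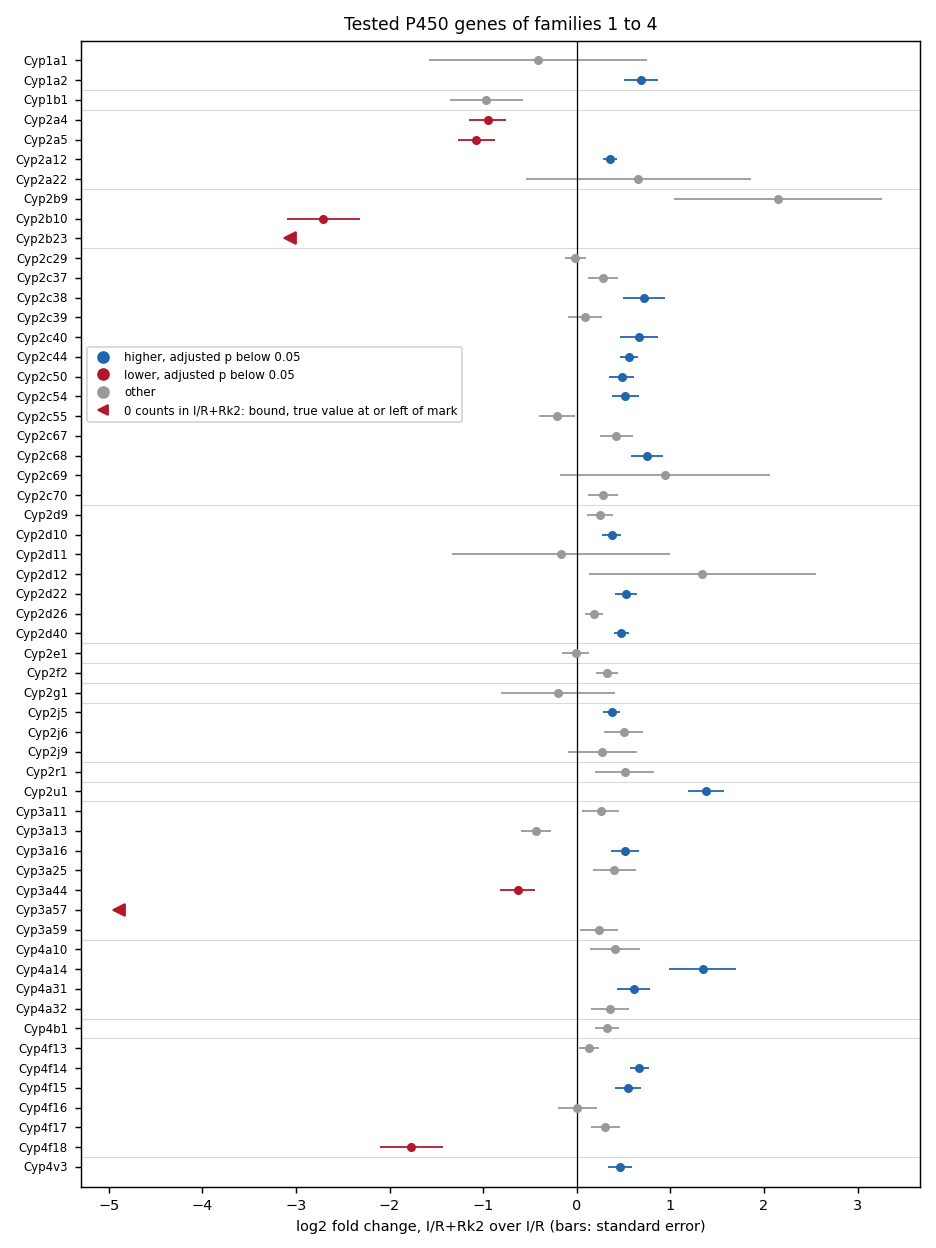
Log2 fold changes (I/R+Rk2 over I/R) of the 57 tested P450 genes, ordered by subfamily, with points for the fitted value and bars for its standard error (n = 3 livers per group). The 19 blue points passed the adjusted p on the higher side, and the red marks on the lower side, where Cyp2b10 lay at -2.71 and triangles give bounds for Cyp2b23 and Cyp3a57, which had 0 counts after Rk2. With library size alone, 12 of the blue points no longer passed.

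When the members of each subfamily were summed, which makes the result independent of how reads were split inside it, 17 of the 19 sums could be tested and 6 passed, beside 44.0% of all rows in that table. Higher sums were called for Cyp1a (log2 fold change 0.68 ± 0.18 SE, adjusted p = 0.0222 in edgeR), Cyp2u (1.38 ± 0.19, 0.00186), Cyp2j (0.39 ± 0.10, 0.0210), Cyp4f (0.54 ± 0.08, 0.00287) and Cyp4v (0.46 ± 0.13, 0.0243). The only lower sum was that of Cyp2b, at -2.64 ± 0.40 (adjusted p = 0.00260). The subfamilies Cyp1b, Cyp2c, Cyp2d, Cyp2f, Cyp4a and Cyp4b had adjusted p between 0.0598 and 0.0926. Their log2 fold changes were above 0 except that of Cyp1b, at -0.97. Cyp2e at -0.01 and Cyp2a at 0.03 lay near 0. Only 3 sums passed without I/R+Rk2 replicate 2, and 7 passed without I/R replicate 2 or when the 3 suffix genes were added to their subfamilies. Cyp2s and Cyp2t consisted of 1 member each with too few reads.

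The Cyp1a and Cyp1b genes are classical targets of AhR, the receptor of dioxins and plant indoles. Cyp1a2, the caffeine and arylamine oxidising P450 of pericentral hepatocytes (chr9:57676937-57683703, minus strand), stood at 430, 571 and 529 CPM in the I/R livers and at 923, 920 and 615 CPM in the I/R+Rk2 livers. Every Rk2 liver lay above every vehicle liver, and replicate 3 of the Rk2 group lay closest to them. The log2 fold change was 0.68 ± 0.19 (SE), with an adjusted p of 0.0221 in edgeR. The call ended without I/R replicate 1 or 3 or I/R+Rk2 replicate 1 or 2, with values from 0.58 to 0.86 over the 6 fits that left out 1 liver.

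Cyp1a1, its inducible neighbour on chromosome 9, was low and uneven. It had 1.15, 9.13 and 0.558 CPM in I/R and 1.05, 0.740 and 6.88 CPM in I/R+Rk2. A single high liver in each group set both means, the groups overlapped, and the log2 fold change of -0.41 ± 1.16 had an adjusted p of 0.792. Its sign turned to 1.72 without I/R replicate 2. Cyp1b1, which is expressed mostly outside hepatocytes, had 42, 43 and 37 counts in I/R and 18, 20 and 24 in I/R+Rk2. Its difference of -0.97 ± 0.39 on the log2 scale did not pass (adjusted p = 0.0810) but did without I/R+Rk2 replicate 3 (-1.39). Of the 3 genes listed as AhR targets, 1 was called (33.3%, beside 43.9% of all genes), and the receptor gene Ahr itself was lower, as given below.

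The Cyp2b genes lie in a cluster on chromosome 7 and answer to CAR, the receptor through which phenobarbital acts. Cyp2b10 (chr7:25897620-25926624, plus strand), its best known target in the mouse, was counted 4750, 2802 and 3260 times in I/R and 360, 1082 and 441 times in I/R+Rk2. On the CPM scale that was 248, 109 and 130 against 15.1, 32.0 and 27.1. The groups were far apart, and the highest Rk2 liver stood well under the lowest vehicle liver. The fall was 6.55-fold, with a log2 fold change of -2.71 ± 0.39 and an adjusted p of 0.00215 in edgeR, and it passed in every fit that left out 1 liver (-2.95 to -2.26).

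Cyp2b23 had 35, 16 and 22 counts in I/R and 0 in each Rk2 liver. Set against 3 counts per library, this is at least 8.33-fold lower. Cyp2b9, a gene more active in female liver, had 12, 0 and 10 counts in I/R and 7, 109 and 11 in I/R+Rk2, so that 1 Rk2 liver carried most of its reads and the difference did not pass (adjusted p = 0.155). Cyp2b19 had 2 counts in all. Cyp2b23 is named here because of its value.

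The first 250 bases upstream of the Cyp2b10 start (chr7:25897408-25897657 of GRCm38.p6, plus strand, from RefSeq) are shown because this gene had the largest fall among members with reads in every liver. Capitals mark the 2 matches to the AhR core GCGTG, read on either strand. The GENCODE gene given above starts at base 25897620, before the RefSeq start. By that annotation the last printed bases, with the second match, lie inside the gene.
Cyp2b10: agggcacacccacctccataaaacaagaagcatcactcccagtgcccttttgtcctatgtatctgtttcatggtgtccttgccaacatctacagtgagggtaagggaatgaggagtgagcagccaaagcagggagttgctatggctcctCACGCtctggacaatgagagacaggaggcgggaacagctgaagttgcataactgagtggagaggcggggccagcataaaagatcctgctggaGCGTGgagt
CAR itself was higher after Rk2, as described with the regulators, so the transcript of the receptor and that of its best known target moved in opposite directions. Of the 10 tested genes listed as CAR or PXR targets, 3 were called (30.0%, beside 43.9% of all genes), Cyp2b10 lower and Cyp2c50 and Cyp2c54 higher.

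**Figure D2:**
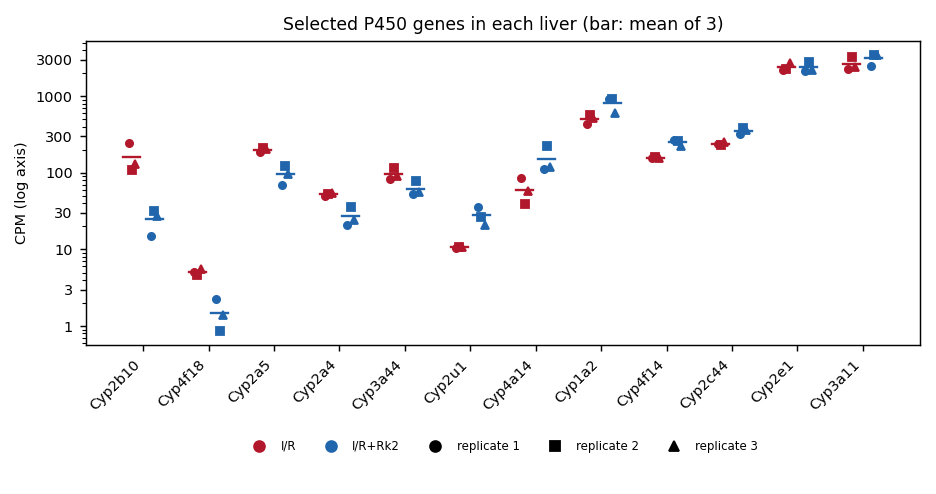
CPM of 12 P450 genes in each liver on a log axis, with colours for the groups, symbols for replicate numbers and bars for group means of 3 livers. Cyp2b10, Cyp4f18, Cyp2a5, Cyp2a4 and Cyp3a44 lay lower and Cyp2u1, Cyp4a14, Cyp1a2, Cyp4f14 and Cyp2c44 higher in every Rk2 liver, while the groups overlapped for Cyp2e1 and Cyp3a11.

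The Cyp2a genes of the mouse form 2 pairs, and the calls in the 2 pairs differed in direction. Cyp2a5, the coumarin 7-hydroxylase and a pericentral gene, had 185, 212 and 206 CPM in I/R and 68.5, 121 and 96.4 CPM in I/R+Rk2. Cyp2a4, a steroid 15-alpha-hydroxylase that is stronger in females, had 50.3, 52.4 and 55.3 CPM against 20.7, 36.2 and 24.4 CPM. For both genes the I/R livers were tightly grouped, the Rk2 livers were spread more widely below them, and replicate 2 was the highest of the Rk2 livers. The log2 fold changes were -1.07 ± 0.20 (adjusted p = 0.00508 in edgeR) and -0.95 ± 0.20 (0.00815), and both passed in each of the 6 fits that left out 1 liver.

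Cyp2a4 and Cyp2a5 had 98.4% identical coding sequences, and 38.0% and 40.8% of their 50-base stretches occurred in transcripts of other genes, so their single values may trade reads. Their sum does not depend on that. It was 235, 265 and 261 CPM in I/R and 89.2, 158 and 121 CPM in I/R+Rk2, and it fell by 1.05 on the log2 scale (adjusted p = 0.00531 in edgeR). An exon of Cyp2a4 also overlaps Gm42375 on the opposite strand, and the strand setting of the counting is not given in the sources used here.

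In the other pair only Cyp2a12 was called, and it was higher. Cyp2a12, a bile acid hydroxylase, was among the most even members, at 439, 431 and 441 CPM in I/R and 558, 560 and 562 CPM in I/R+Rk2 (log2 fold change 0.36 ± 0.08, adjusted p = 0.00888 in edgeR). With library size alone this call ended, at 0.19. Its relative Cyp2a22 had 66.8, 67.4 and 0 CPM in I/R and 46.7, 82.2 and 82.6 CPM in I/R+Rk2. The 0 of I/R replicate 3 stood beside 1726 counts in replicate 2 of the same group, and the value of Cyp2a22 (0.66 ± 1.20, adjusted p = 0.680) rested on that library, being 0.07 without it. Summed, the pair was higher by 0.39 on the log2 scale (adjusted p = 0.0138 in edgeR). This sum had 506, 499 and 441 CPM in I/R and takes in the 0 of Cyp2a22 in replicate 3, which Cyp2a12 did not make up. How far the summed rise rests on that 0 was not tested. The 4 genes together came to 0.03 ± 0.09, so the whole subfamily sum showed neither the fall nor the rise.

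The 250 bases upstream of Cyp2a4 (chr7:26306942-26307191) and Cyp2a5 (chr7:26835089-26835338, both GRCm38.p6, plus strand, RefSeq) are printed because the 2 genes fell alike. Over the full 300-base windows, which run 50 bases past the start, 294 of 299 aligned bases were identical. Capitals mark the HNF1 motif GTTAAT, which both hold. In GENCODE the genes start at bases 26307169 (Cyp2a4) and 26835305 (Cyp2a5), so by that annotation the last printed bases lie inside them. The marked motif lies before both starts. Each also holds 1 match to AGGTCA within the 50 bases after the start, which are not printed.
Cyp2a4: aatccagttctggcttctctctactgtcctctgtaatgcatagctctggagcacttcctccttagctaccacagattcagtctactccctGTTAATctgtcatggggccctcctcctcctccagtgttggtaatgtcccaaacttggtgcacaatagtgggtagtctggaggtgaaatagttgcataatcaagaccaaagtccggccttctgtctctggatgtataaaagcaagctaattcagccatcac
Cyp2a5: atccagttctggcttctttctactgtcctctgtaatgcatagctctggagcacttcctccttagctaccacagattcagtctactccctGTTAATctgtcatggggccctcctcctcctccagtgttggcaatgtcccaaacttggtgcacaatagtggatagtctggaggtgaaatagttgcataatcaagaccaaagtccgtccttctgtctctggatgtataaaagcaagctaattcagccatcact

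The Cyp2c genes, most of which oxidise drugs and convert arachidonic acid to epoxides while Cyp2c70 acts on bile acids, carry the largest share of P450 transcripts. Of the 13 tested on chromosome 19, 6 were higher and 7 did not pass (46.2% called, beside 43.9% of all genes). Cyp2c29, the most abundant of them, stood at 1312, 1346 and 1417 CPM in I/R and 1245, 1527 and 1261 CPM in I/R+Rk2. Its groups overlapped and its log2 fold change was -0.01 ± 0.11 (adjusted p = 0.926).

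The rises were found in genes of intermediate and low level. Cyp2c44, an epoxygenase listed in current annotations as Cyp2c23, had 238, 230 and 255 CPM in I/R and 322, 383 and 359 CPM in I/R+Rk2. All Rk2 livers lay above all vehicle livers, none of its 50-base stretches occurred in another gene, and the log2 fold change of 0.56 ± 0.10 (adjusted p = 0.00415 in edgeR) passed without any 1 liver. Cyp2c68 rose by 0.75 ± 0.17 (0.0123), from 131, 118 and 101 CPM to 221, 217 and 149 CPM. It too passed in all 6 fits that left out 1 liver, though not with library size alone (0.58).

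Cyp2c68 shares the cluster with Cyp2c40, Cyp2c67 and Cyp2c69, whose coding sequences are between 96.5% and 98.1% identical in pairs, and 43.3% to 72.1% of their 50-base stretches occur elsewhere. Cyp2c40 had 71.4, 67.6 and 55.0 CPM in I/R and 122, 113 and 72.6 CPM in I/R+Rk2, with I/R+Rk2 replicate 3 just above the highest vehicle liver (log2 fold change 0.67 ± 0.20, adjusted p = 0.0325). Its call ended without I/R replicate 1, 2 or 3 or I/R+Rk2 replicate 1 or 2 (0.51 to 0.87 over the 6 fits). Cyp2c69 was listed at 726, 1061 and 0 counts in I/R and 1445, 1860 and 592 in I/R+Rk2. Taken as 1 gene, the 4 relatives had 382, 376 and 293 CPM in I/R and 631, 592 and 396 CPM in I/R+Rk2. Their sum was higher by 0.62 ± 0.19 (adjusted p = 0.0349 in edgeR). The sum takes in the 0 of Cyp2c69 in I/R replicate 3. In that liver Cyp2c40, Cyp2c67 and Cyp2c68 were not raised (55.0, 138 and 101 CPM). How far the summed rise rests on that 0 was not tested.

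Cyp2c37, Cyp2c50 and Cyp2c54 form another tight group of epoxygenases, 95.1% to 96.1% identical. Cyp2c50 had 464, 471 and 514 CPM in I/R and 595, 812 and 610 CPM in I/R+Rk2 (0.48 ± 0.14, adjusted p = 0.0275), and Cyp2c54 had 214, 204 and 210 CPM against 257, 372 and 270 CPM (0.52 ± 0.15, 0.0261). In both, replicate 2 was the highest Rk2 liver and the groups did not overlap. Cyp2c37 overlapped between groups (0.28 ± 0.16, 0.193), and the sum of the 3 was higher by 0.45 ± 0.14 (0.0377). Omitting I/R replicate 1, 2 or 3 ended both single calls (0.46 to 0.52 for Cyp2c50 and 0.50 to 0.54 for Cyp2c54), and omitting I/R+Rk2 replicate 2 ended that of Cyp2c50 (0.32).

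Cyp2c38 was low, with 13.8, 9.95 and 11.8 CPM in I/R and 14.1, 25.1 and 19.0 CPM in I/R+Rk2. The groups were separated only by the gap between I/R replicate 1 and I/R+Rk2 replicate 1. Its log2 fold change of 0.72 ± 0.23 (adjusted p = 0.0373) passed in only 1 of the 6 fits that left out a liver, the one without I/R+Rk2 replicate 1, and its sum with the relative Cyp2c39 did not pass (0.59, 0.0512). Cyp2c39, Cyp2c55, Cyp2c67 and Cyp2c70 had log2 fold changes of 0.09, -0.21, 0.42 and 0.28 and did not pass, though Cyp2c67 did without I/R+Rk2 replicate 3 (0.61). Cyp2c65 had 2 counts in all.

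The Cyp2d genes of chromosome 15 are the mouse relatives of the human enzyme that oxidises debrisoquine and codeine. Of 7 tested, 3 were higher and 4 did not pass (42.9% called, beside 43.9% of all genes). Cyp2d40 had 70.0, 68.8 and 72.0 CPM in I/R and 101, 99.6 and 92.4 CPM in I/R+Rk2, with little spread in either group and no overlap (log2 fold change 0.48 ± 0.08, adjusted p = 0.00331 in edgeR). Cyp2d22, the Cyp2d member with the smallest share of 50-base stretches found elsewhere (6.14%), rose by 0.53 ± 0.12 (0.0115), from 114, 125 and 131 CPM to 161, 207 and 164 CPM. Both passed in all 6 fits that left out a liver.

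Cyp2d10 was higher by 0.37 ± 0.10 (adjusted p = 0.0211), a call that ended without I/R replicate 1 or 3 or I/R+Rk2 replicate 1 or 2 (0.33 to 0.44). The male-biased Cyp2d9, a steroid 16-alpha-hydroxylase and the most abundant Cyp2d gene, had 611, 818 and 839 CPM in I/R and 928, 937 and 823 CPM in I/R+Rk2. The groups overlapped, and 0.25 ± 0.14 did not pass (0.193). Cyp2d26 did not pass either (0.18, 0.142 with edgeR), although its groups did not overlap. Cyp2d11 was at 0 in I/R+Rk2 replicate 3 beside 2635 counts in replicate 1, and Cyp2d12 was at 0 in I/R replicates 1 and 3 beside 83 counts in replicate 2. Cyp2d9, Cyp2d10, Cyp2d11 and Cyp2d12 summed came to 0.27 ± 0.13 (0.139). Cyp2d9 makes up most of this sum, which also takes in the 0 of Cyp2d11 in I/R+Rk2 replicate 3. The sum therefore cannot decide on the call of Cyp2d10.

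Cyp2e1, which oxidises ethanol and acetaminophen, and Cyp2f2, a naphthalene oxidising P450 of periportal hepatocytes, are single-member subfamilies. Cyp2e1 had 2217, 2271 and 2729 CPM in I/R and 2150, 2778 and 2238 CPM in I/R+Rk2, with the ranges lying over each other. Its log2 fold change was -0.01 ± 0.14 (adjusted p = 0.961), and it stayed between -0.13 and 0.09 when any 1 liver was left out. Cyp2f2 had 1021, 1239 and 1063 CPM against 1528, 1290 and 1334 CPM. The groups did not overlap, but the difference of 0.32 ± 0.12 missed the threshold (0.0622), passing by DESeq2, with upper-quartile scaling and without I/R replicate 2 (0.41).

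Among the smaller subfamilies of family 2, Cyp2u1 stood out. It hydroxylates long-chain fatty acids and was listed here as a male-biased gene. The I/R livers were nearly equal at 10.5, 10.8 and 10.9 CPM, and the I/R+Rk2 livers reached 35.9, 26.7 and 21.1 CPM. The vehicle livers lay in a narrow band below all Rk2 livers, and the log2 fold change of 1.38 ± 0.19 (adjusted p = 0.00189 in edgeR) passed without any 1 liver (1.15 to 1.55). Its gene on chromosome 3 (chr3:131288441-131303227, minus strand) has an exon that overlaps 4930534D22Rik on the other strand, and reads of the 2 cannot be told apart without strand.

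Cyp2j5, an epoxygenase of liver and kidney, had 364, 411 and 377 CPM in I/R and 485, 534 and 472 CPM in I/R+Rk2. The groups did not overlap (log2 fold change 0.37 ± 0.09, adjusted p = 0.0168), and the call ended without I/R replicate 3 or I/R+Rk2 replicate 2 (0.36 and 0.32). Cyp2j6 and Cyp2j9 did not pass (0.50 and 0.27). Of the 16 tested Cyp2c and Cyp2j genes together, which include Cyp2c70, 7 were called, all higher (43.8%), and 9 did not pass. Of all genes, 20.3% were called higher and 43.9% in either direction. Of the 7 rises, only that of Cyp2c44 stayed called with library size alone. Cyp2r1, a vitamin D 25-hydroxylase, had 4.12, 4.18 and 8.69 CPM in I/R and 6.43, 8.97 and 8.90 CPM in I/R+Rk2. One vehicle liver lay inside the Rk2 range, and 0.51 ± 0.32 (adjusted p = 0.224) passed without it (0.96). Cyp2g1, an olfactory P450, had 6 to 35 counts per liver and did not pass (-0.20, 0.805). Cyp2s1 and Cyp2t4 had at most 11 counts in any liver.

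The Cyp3a genes of chromosome 5, the relatives of the main human drug-oxidising P450, gave calls in both directions. Cyp3a11, the most abundant and a PXR target, had 2246, 3260 and 2418 CPM in I/R and 2481, 3456 and 3513 CPM in I/R+Rk2. The groups overlapped and 0.25 ± 0.20 did not pass (adjusted p = 0.323). Cyp3a16, known from the fetal liver, rose by 0.52 ± 0.15 (0.0291), with 40.7, 57.4 and 43.2 CPM in I/R and 59.8, 68.6 and 74.0 CPM in I/R+Rk2. Cyp3a44, active mainly in females, fell by 0.63 ± 0.19 (0.0298), with 82.5, 116 and 92.2 CPM against 53.3, 78.4 and 55.9 CPM. In both genes the groups were separated by a narrow gap, between I/R replicate 2 and I/R+Rk2 replicate 1 for Cyp3a16 and between I/R replicate 1 and I/R+Rk2 replicate 2 for Cyp3a44.

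These opposite calls belong to genes whose coding sequences are 92.4% identical, and 10.7% and 26.5% of their 50-base stretches occur in other genes. Summed with Cyp3a11, the 3 had 2369, 3434 and 2553 CPM in I/R and 2595, 3604 and 3644 CPM in I/R+Rk2. The sum overlapped between groups, and 0.24 ± 0.19 did not pass (0.355). That sum is made up mostly of Cyp3a11. The call of Cyp3a16 ended without I/R replicate 1 or 3 or I/R+Rk2 replicate 2 or 3 (0.43 to 0.69 over the 6 fits), and that of Cyp3a44 without I/R replicate 2 or 3 or I/R+Rk2 replicate 1 or 3 (-0.83 to -0.48). Of 6 tested female-biased genes, Cyp2c40 and Cyp3a16 were higher and Cyp2a4 and Cyp3a44 lower (66.7% called, beside 43.9% of all genes).

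The upstream sequences of Cyp3a16 (chr5:145469724-145469973) and Cyp3a44 (chr5:145805875-145806124, both GRCm38.p6, minus strand, RefSeq) are shown because the genes were called in opposite directions. Over the 300-base windows, 284 of 296 aligned bases were identical. Capitals mark the nuclear receptor motif AGGTCA, found in that of Cyp3a44.
Cyp3a16: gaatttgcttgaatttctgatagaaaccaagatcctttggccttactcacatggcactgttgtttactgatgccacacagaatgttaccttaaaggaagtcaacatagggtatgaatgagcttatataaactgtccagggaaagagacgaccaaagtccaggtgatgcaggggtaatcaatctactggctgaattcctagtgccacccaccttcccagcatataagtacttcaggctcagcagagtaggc
Cyp3a44: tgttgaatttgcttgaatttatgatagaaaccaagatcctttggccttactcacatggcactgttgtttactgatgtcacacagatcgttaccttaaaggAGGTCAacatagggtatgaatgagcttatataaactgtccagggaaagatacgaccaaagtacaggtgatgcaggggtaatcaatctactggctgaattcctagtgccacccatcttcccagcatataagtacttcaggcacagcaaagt

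Cyp3a57 had 30, 138 and 123 counts in I/R and 0 in all 3 Rk2 livers. Against 3 counts per library, that is at least 29.7-fold lower. It is named here for this value. Its coding sequence is 93.9% and 94.2% identical to those of Cyp3a25 and Cyp3a59, of which Cyp3a25 alone was counted 5401, 6371 and 7692 times in I/R. The sum of the 3 was 354, 322 and 395 CPM in I/R and 314, 448 and 605 CPM in I/R+Rk2, with a log2 fold change of 0.35 ± 0.22 of the opposite sign that did not pass (0.235). Cyp3a25 and Cyp3a59 by themselves overlapped between groups (0.40 and 0.24). Cyp3a13, which stands apart from the cluster and shares no 50-base stretch with another gene, had 226, 162 and 192 CPM against 120, 143 and 165 CPM. Its log2 fold change of -0.44 ± 0.16 missed the threshold (0.0595) and passed by DESeq2 and with library size alone.

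The Cyp4a genes of chromosome 4 hydroxylate the omega end of fatty acids and are switched on by PPAR-alpha. Cyp4a14 had 85.0, 38.9 and 57.5 CPM in I/R and 111, 228 and 120 CPM in I/R+Rk2. The Rk2 livers all lay above the vehicle livers, replicate 2 far above the others. The log2 fold change of 1.34 ± 0.36 (adjusted p = 0.0214 in edgeR) no longer passed without I/R replicate 2 (1.11) or 3 (1.31) or I/R+Rk2 replicate 2 (0.94).

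Cyp4a10, the most abundant Cyp4a gene among the members, had 133, 103 and 171 CPM against 119, 232 and 189 CPM, with overlap (0.41 ± 0.27, adjusted p = 0.251). Cyp4a31 passed by itself, with 14.3, 13.3 and 16.6 CPM in I/R and 17.5, 26.6 and 23.4 CPM in I/R+Rk2 (0.61 ± 0.17, 0.0267). It is 96.6% identical to Cyp4a10, and the sum of Cyp4a10, Cyp4a31 and Cyp4a32 overlapped between groups (0.42 ± 0.25, 0.207). On the FPKM scale, Cyp4a31 was at 11.6, 5.14 and 12.3 in I/R and 7.86, 11.9 and 9.74 in I/R+Rk2, where the groups overlapped as well. Its call ended without I/R replicate 1 or 2 or I/R+Rk2 replicate 2 or 3 (0.47 to 0.75). Of the 4 genes listed as PPAR-alpha targets, 2 were called, both higher, which is 50% beside 43.9% of all genes, and Ppara itself did not pass.

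The Cyp4f genes act on leukotrienes, vitamin E and long-chain fatty acids. Cyp4f14, the most abundant, had 155, 163 and 158 CPM in I/R and 271, 263 and 222 CPM in I/R+Rk2. The gap between the groups was wide beside the spread within them, and the log2 fold change of 0.67 ± 0.10 (adjusted p = 0.00238 in edgeR) passed without any 1 liver. Cyp4f15 rose by 0.54 ± 0.14 (0.0182), from 58.1, 64.8 and 60.8 CPM to 71.2, 102 and 94.9 CPM, and its call ended without I/R replicate 1 or 3 or I/R+Rk2 replicate 2 or 3 (0.44 to 0.67). Cyp4f13, Cyp4f16 and Cyp4f17 did not pass (0.13, 0.00 and 0.30), and Cyp4f39 had 3 counts in all.

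Cyp4f18 went the other way. It inactivates leukotriene B4 and is known from neutrophils and other leukocytes. It was counted 97, 118 and 138 times in I/R and 53, 29 and 23 times in I/R+Rk2, or 5.06, 4.60 and 5.50 CPM against 2.23, 0.859 and 1.41 CPM. No Rk2 liver reached the vehicle range, and the log2 fold change of -1.77 ± 0.34 (adjusted p = 0.00588 in edgeR) passed without any 1 liver (-2.21 to -1.45). Beside it, 12 of 13 neutrophil markers were called lower (92.3%, beside 23.7% of all genes), with a median log2 fold change of -2.22. The summed neutrophil markers of every Rk2 liver lay below those of every vehicle liver. The part of neutrophils in the fall of Cyp4f18 was not tested. An exon of the gene overlaps Zfp961 on the opposite strand.

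Cyp4v3, a fatty acid omega-hydroxylase, had 294, 412 and 340 CPM in I/R and 477, 483 and 482 CPM in I/R+Rk2, with no overlap and almost no spread after Rk2 (0.46 ± 0.13, adjusted p = 0.0244 in edgeR). The call ended without I/R replicate 1 or 3 or any 1 of the Rk2 livers (0.36 to 0.60). An exon of Cyp4v3 overlaps Gm45753 on the same strand, and 7.02% of its 50-base stretches occur in that gene. Cyp4b1 did not pass (0.32 ± 0.13, 0.0771) and passed without I/R replicate 1 (0.44). Of the 10 tested omega-hydroxylases of the Cyp4a and Cyp4f subfamilies, 4 were higher and Cyp4f18 was lower (50% called, beside 43.9% of all genes). Of the 8 genes listed as pericentral, Cyp1a2, Cyp2c50 and Cyp2c54 were higher and Cyp2a5 was lower (50% called, beside 43.9% of all genes). Cyp2f2, the periportal gene listed, did not pass.

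Levels of different genes were compared per length, on the authors' FPKM scale. Cyp2e1 (mean 1319 FPKM over the 6 livers), Cyp3a11 (1152), Cyp2c29 (712) and Cyp2f2 (648) headed the list and together held 47.3% of the summed FPKM of the members. None of these 4 passed the test between groups. At least 100 FPKM on average was reached by 17 members and under 1 FPKM by 12. Cyp1a2 at 319 FPKM was the most abundant member that passed, and Cyp2u1, with the largest tested rise among those called, averaged 3.60 FPKM in I/R and 8.42 FPKM in I/R+Rk2.

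Summed over all 63 members, the FPKM values were 8007, 8023 and 7657 in I/R and 8139, 9012 and 7724 in I/R+Rk2. The group means of 7896 ± 207 and 8292 ± 658 (SD, n = 3) overlapped, with a ratio of 1.05 and an exact two-sided permutation p of 0.4, where 0.1 is the smallest that 3 against 3 livers allow. On the TMM-scaled CPM scale the ratio of the same sums was 1.18 and the groups did not overlap, with 14035 to 15912 CPM in I/R and 16735 to 19302 CPM in I/R+Rk2. As a share of all FPKM the members made up 1.22% ± 0.07 in I/R and 1.28% ± 0.15 in I/R+Rk2. Within that sum, Cyp2e1 went from 17.7% ± 2.04 to 15.0% ± 0.95 (exact p = 0.2), the Cyp2b genes from 1.10% ± 0.57 to 0.149% ± 0.05 (exact p = 0.1), and the Cyp1a genes from 3.31% ± 0.31 to 4.56% ± 0.91 (exact p = 0.1).

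**Figure D3:**
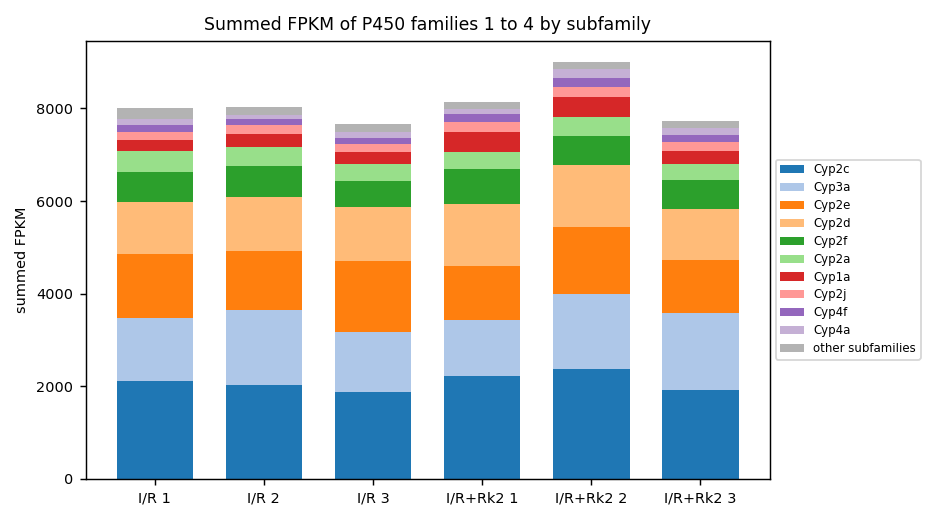
Summed FPKM of the P450 genes of families 1 to 4 in each liver, stacked by subfamily from 0 upward, with the 10 largest subfamilies in colour and the rest in grey. Cyp2c, Cyp3a, Cyp2e and Cyp2d form most of every bar, and the FPKM totals of the 2 groups overlap, from 7657 to 8023 in I/R and from 7724 to 9012 in I/R+Rk2.

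A 0 in one liver beside at least 50 counts in another of the same group was seen for 5 of the 55 members that reached 50 counts (9.09%), and for 54 of 11197 genes in all (0.482%). The 5 were Cyp2a22, Cyp2c69, Cyp2d11, Cyp2d12 and Cyp2d34. Of the 22 tested members with at least 20% of their 50-base stretches in other genes, 11 were called and the median standard error was 0.19, and of the 35 below that share 15 were called, with a median of 0.19.

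**Figure D4:**
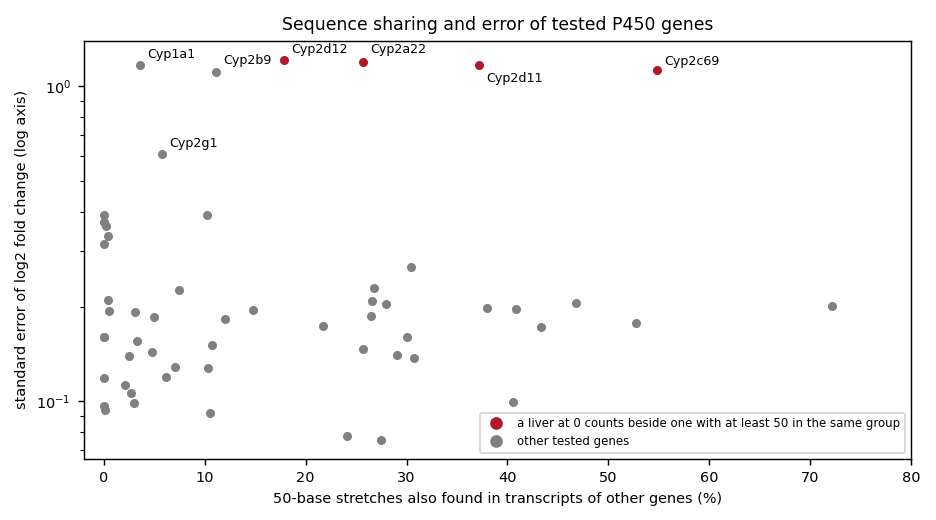
Standard error of the log2 fold change on a log axis against the percentage of a gene's 50-base transcript stretches that also occur in other genes, 1 point per tested P450 gene, without Cyp2b23 and Cyp3a57. The 4 red points, Cyp2a22, Cyp2c69, Cyp2d11 and Cyp2d12, had a liver at 0 beside one with at least 50 counts in the same group. Their errors are 1.12 to 1.21, and those of Cyp1a1 and Cyp2b9, which are not red points, are 1.16 and 1.11. The median error is 0.19 for the 22 genes that share at least 20%, among them Cyp2a22, Cyp2c69 and Cyp2d11. It is also 0.19 for the 35 that share less.

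Every microsomal P450 needs electrons and heme, and 16 genes of electron transfer and heme metabolism were examined. They include Fdx1 and Fdxr, which serve mitochondrial P450s, and Hmox1, which breaks heme down. Of the 16, 9 were higher, 3 lower and 4 not called, so that 75.0% were called beside 43.9% of all genes. Por, which encodes cytochrome P450 reductase, had 361, 328 and 335 CPM in I/R and 117, 113 and 102 CPM in I/R+Rk2. Its groups were tight and far apart, with a log2 fold change of -1.63 ± 0.09 (adjusted p = 0.000212 in edgeR). Cytochrome b5, another electron donor, is encoded by Cyb5a in the microsomes and by Cyb5b at the mitochondrial outer membrane. Cyb5a did not pass (0.18, 0.282), and Cyb5b was higher by 0.79 ± 0.13.

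Heme is built in a chain of steps that starts with 5-aminolevulinate synthase and is broken down by heme oxygenase. Alas1, the first and rate-limiting enzyme, had 590, 464 and 478 CPM in I/R and 278, 117 and 123 CPM in I/R+Rk2, and was lower by 1.56 ± 0.34 on the log2 scale (adjusted p = 0.00949 in edgeR). It is named here for its value. Cpox and Fech, which act late in the chain, were higher by 0.90 and 0.41. Hmox1, the stress-induced heme oxygenase, had 282, 277 and 321 CPM in I/R and 53.7, 44.8 and 42.0 CPM in I/R+Rk2, and its log2 fold change was -2.65 ± 0.12 (0.000197). Por, Alas1 and Hmox1 passed without any 1 liver.

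The transcription factors that govern these families gave 7 higher and 6 lower calls among 26 tested, which is 26.9% and 23.1% beside 20.3% and 23.7% of all genes. Nr1i3, which encodes CAR, had 26.1, 18.2 and 24.6 CPM in I/R and 37.3, 54.9 and 47.2 CPM in I/R+Rk2 (log2 fold change 1.02 ± 0.19, adjusted p = 0.00505 in edgeR). Every Rk2 liver was above the vehicle livers. Ahr had 60.1, 52.9 and 58.5 CPM against 26.9, 35.7 and 26.5 CPM (-0.94 ± 0.14, 0.00215). Nr1i2, which encodes PXR, and Ppara overlapped between groups (0.18 and 0.06), though Nr1i2 passed without I/R+Rk2 replicate 1 (0.40). Nr1h4, the bile acid receptor FXR, rose by 0.94 ± 0.08, and the clock output factor Tef fell by 1.28 ± 0.15.

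**Figure D5:**
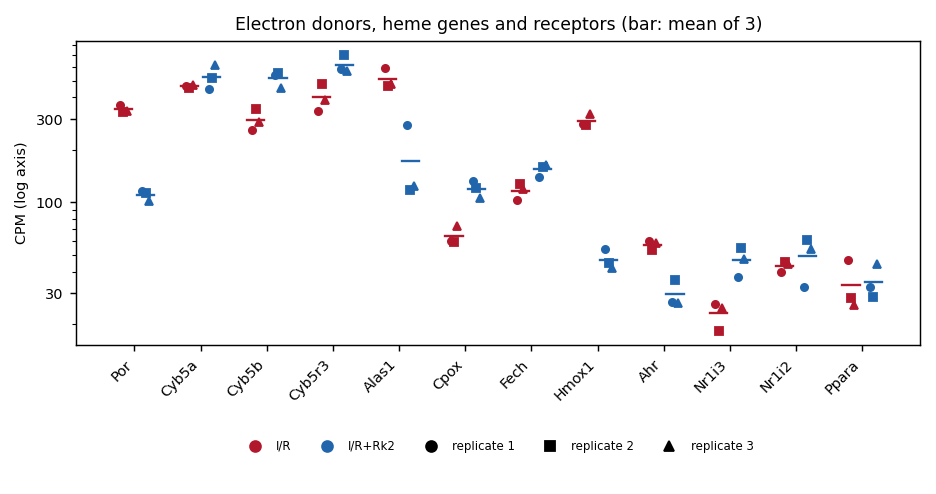
CPM of 12 genes for electron donors, heme metabolism and receptors in each liver on a log axis, with colours for groups, symbols for replicate numbers and bars for group means of 3 livers. Por, Alas1, Hmox1 and Ahr lie lower and Cyb5b, Cyb5r3, Cpox, Fech and Nr1i3 higher in every Rk2 liver, while Cyb5a, Nr1i2 and Ppara overlap.

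P450 genes outside families 1 to 4 were read from a list of 18, of which 13 could be tested, with 4 higher and 2 lower. That is 46.2% called, beside 43.9% of all genes. Cyp8b1, the sterol 12-alpha-hydroxylase, had 68.7, 101 and 60.6 CPM in I/R and 251, 302 and 225 CPM in I/R+Rk2 (1.76 ± 0.21, adjusted p = 0.00112 in edgeR). Cyp7a1, the rate-limiting enzyme of the classical bile acid route, had 3.44, 3.67 and 2.15 CPM against 31.0, 15.7 and 3.87 CPM. Its Rk2 livers were spread over a wide range (2.46 ± 0.67, 0.0221), and the call ended without I/R replicate 1 (2.54), 2 (2.62) or 3 (2.25). Cyp46a1 and Ptgis had log2 fold changes of 1.44 and -1.70 (adjusted p = 0.0326 for both), and each passed in only 1 of the 6 fits that left out a liver, Cyp46a1 without I/R+Rk2 replicate 1 (1.67) and Ptgis without I/R+Rk2 replicate 3 (-2.51). Cyp27a1, the mitochondrial sterol 27-hydroxylase, was higher by 0.30 and Tbxas1, thromboxane synthase, lower by 1.21 on the log2 scale. Of the other bile acid genes listed, Cyp39a1 (0.28) and Cyp7b1 (-0.46) did not pass. Genes of this list other than Cyp8b1, Cyp7a1, Cyp46a1 and Ptgis are named to account for its calls. The list's count of 6 fell to 1 without I/R replicate 1 or 3, to 2 without I/R replicate 2 or I/R+Rk2 replicate 2 and to 3 without I/R+Rk2 replicate 1.

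The promoters of the members were compared with those of all genes in the reference set. RefSeq entries were at hand for 52 of the 63 member genes, with 57 start sites, and for 32851 start sites in all, each a window of 300 bases. AGGTCA was found on either strand in 31.6% of member windows and 16.3% of all, GTTAAT in 14.0% and 7.10%, GCGTG in 17.5% and 32.4%, the STAT motif TTCNNNGAA in 3.51% and 8.30%, and the C/EBP palindrome TTGCGCAA in 0 of 57 and 0.183%. Cyp2u1, Cyp4a14 and Cyp2c44 were among the 11 genes without an entry. Close copies share their upstream sequence too, so the 57 windows are not independent of each other.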

How the data were processed

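Liver RNA of 3 I/R and 3 I/R+Rk2 mice was sequenced with an MGI library kit. The submitters' processing notes name FastQC 0.11.5, HISAT2 2.2.1, StringTie 1.3.3 and the mm10 build. The annotation and strand setting are not given in the sources used here. The authors deposited whole-number counts per gene and, in a separate table, FPKM values, which are scaled by transcript length and library. How reads of near-identical copies were divided among genes was not tested.

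Counts of the whole table were scaled by TMM, filtered with filterByExpr (12411 genes kept) and tested with edgeR 4.0.16 in R 4.3.3 (quasi-likelihood, Benjamini-Hochberg adjustment over all genes, threshold 0.05). TMM factors were 1.01 to 1.14 in I/R and 0.914 to 0.975 in I/R+Rk2. CPM values, standard errors and adjusted p in the text come from this fit, and bounds use 3 counts per library. DESeq2 1.42.0 and limma 3.58.1 on log2(FPKM + 1) or log2(FPKM + 0.1), other scalings and filters, each liver left out in turn and a replicate block were alternatives. Sums over close relatives (coding sequences at least 90.7% identical in pairs) were added after seeing the data. Sharing was the percentage of 50-base stretches of a gene's GENCODE M21 transcripts found in other genes. Scripts were tested on simulated data.

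The members and lists were chosen with earlier results of these data known. Named genes were the most abundant member of each subfamily, the 8 largest rises and falls among non-overlapping calls with a group mean of at least 100 counts, a fixed list of 16 well-known members, pairs called in opposite directions with over 90% coding identity (in place of protein identity), and from the regulators and other families the 4 smallest p and 5 fixed genes. Other members were named to account for every member, and Cyp2b23, Cyp3a57 and the remaining heme and electron genes after their values were seen. Sham livers and the table's total column were not used.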

Additional observations from a re-analysis of the deposited data

How the results depend on the processing

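The 26 calls became 15 with library size alone, and 12, 12 and 11 with limma on log2(FPKM + 1), log2(FPKM + 0.1) and log2(FPKM + 1) without the filter. With library size alone that was 26.3% of members beside 38.7% of genes. The limma shares were 23.5% beside 38.8%, 23.5% beside 38.1% and 17.5% beside 26.7%. The limma calls were 6 higher and 6 lower, 6 and 6, and 4 and 7. Leaving out 1 liver gave 15 to 24 calls, 26.3% to 41.4% of members beside 31.1% to 43.1% of genes. The calls with a fold above 2 then ranged from 6 to 8. Subfamily sums ranged from 3 to 7 and the 25 regulators and partners from 19 to 26. The 6 calls in other P450 families became 3 without the filter, 2 with limma on log2(FPKM + 1) and 2 on log2(FPKM + 0.1), and 1 to 7 with 1 liver left out. The summed FPKM ratio of 1.05 became 1.18 on the CPM scale and stayed above 1 with any 1 liver left out. The sums of close relatives that hold Cyp3a44 and Cyp3a57 had the opposite sign to these genes, at 0.24 and 0.35. More abundant relatives make up most of both sums, so the sums cannot show the direction of either gene. Over the single genes named, 756 alternative values kept their side of the threshold, 129 lost the call and 12 gained it. Another 2, the sums for Cyp3a44 and Cyp3a57, reversed. The 756 include sign changes of genes that were not called, such as Cyp1a1 (1.72 without I/R replicate 2). The causes were not tested, though fits without a liver had fewer samples.

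Replicate numbers did not pair the livers, since same-numbered livers correlated at -0.056, 0.005 and -0.058. With the replicate number as a block, 25 members passed, 18 higher and 7 lower, or 43.9% beside 38.0% of all genes. Cyp2c38 (adjusted p = 0.0956 in edgeR) and Cyp4a14 (0.0653) did not pass. With 3 livers per group, members of a few counts, such as Cyp2s1 and Cyp2t4, could not be tested, and the split of reads among close copies limits single-gene values.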
